A study of Mus musculus with 97 samples.

Results

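Whole colon of mice given vancomycin into a vein was set against whole colon of mice given phosphate-buffered saline (PBS) by the same route, using RNA sequencing. The samples were the 5 libraries labelled Vancomycin-IV and the 5 labelled PBS-IV, taken by their labels from 97 libraries in 18 groups. All mice of both groups were wild-type C57BL6/J, aged 8 to 12 weeks. Vancomycin-IV mice received 2.5 mg vancomycin in 100 µl PBS per dose, and PBS-IV mice received 100 µl PBS alone. Doses were given 2 times a day for 3 days and 1 more time on day 4, and tissue was taken 4 h after the last dose. The other groups received ampicillin, metronidazole, neomycin, vancomycin, a mix of the 4, or PBS, by 1 of 3 routes: PO (by mouth), IP (intraperitoneal) or IV (intravenous). The labels call the libraries replicates and do not say that each came from a separate mouse, so p-values here measure the spread between libraries. For tests of single genes that spread was estimated over all 97 libraries in 18 groups unless stated.

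Vancomycin is a glycopeptide antibiotic that blocks cell wall synthesis in Gram-positive bacteria. It is poorly absorbed from the gut, and a dose into a vein leaves the body mostly through the kidney. Whole colon holds the mucosa and the muscle wall, so the level of any gene depends on how much of each layer a piece of tissue contained. In bulk tissue, fewer cells of a type and less RNA per cell cannot be told apart.

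Levels were in TPM, a unit that sets each gene's reads against its length and against the total of the library. Every library therefore summed to 1000000 TPM, and its sequencing depth is unknown. Between 19199 and 19804 of 20457 genes were above 0 in each of the 10 libraries.

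Tissue content was read from 3 measures in each library, because smooth muscle and gut position vary between pieces of colon. The smooth muscle score was the mean log2(TPM + 1) of 18 contractile genes, among them Acta2, Tagln and Myh11. It was 10.3, 9.83, 8.06, 10.98 and 8.74 in PBS-IV replicates 1 to 5, and 8.17, 10.9, 11.6, 11.1 and 11.3 in Vancomycin-IV replicates 1 to 5. Thus 4 of the 5 Vancomycin-IV libraries were rich in muscle transcripts, while Vancomycin-IV replicate 1 lay near the lowest PBS-IV library. The mean was 10.6 ± 1.38 (SD, n = 5) in Vancomycin-IV and 9.58 ± 1.18 (SD, n = 5) in PBS-IV. The difference of 1.02 was within the spread between libraries (exact permutation test, two-sided, p = 0.222, adjusted over the 3 content measures 0.333). Without Vancomycin-IV replicate 1 the difference was 1.62, with an exact permutation p of 0.0317. The smallest p that the 252 splits of 5 against 5 libraries can give is 0.00794.

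Smooth muscle genes showed the same split one by one. Myh11, the smooth muscle myosin heavy chain, stood at 5933, 4448, 1355, 8276 and 1789.8 TPM in PBS-IV and at 859, 9455, 11941, 8860.1 and 11586 TPM in Vancomycin-IV. Tagln, which encodes the actin-binding protein transgelin, stood at 5131, 4852, 1210.4, 9976 and 2129 TPM in PBS-IV and at 1348, 12704, 12440.2, 9562 and 10314 TPM in Vancomycin-IV. The other 4 Vancomycin-IV libraries lay above all PBS-IV libraries for Myh11, and for Tagln all but replicate 4 did. Vancomycin-IV replicate 1 lay below all PBS-IV libraries for Myh11 and below 4 of 5 for Tagln. Goblet cell genes ran the other way: Zg16, a secreted mucus lectin, was at 800.1, 5081, 1474, 63.0 and 5592 TPM in PBS-IV and at 7128, 669, 140.0, 733 and 343 TPM in Vancomycin-IV. Vancomycin-IV replicate 1 was the highest library of the 10 for Zg16.

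Posterior Hox genes mark the distal end of the colon. Their score, the mean log2(TPM + 1) of Hoxa13, Hoxb13, Hoxd11, Hoxd12 and Hoxd13, was 1.61, 5.03, 1.10, 3.99 and 4.37 in PBS-IV and 4.20, 2.73, 4.01, 4.75 and 1.83 in Vancomycin-IV. Both groups thus mixed libraries with high and low distal content, and the means differed by 0.286 (exact permutation test, two-sided, p = 0.754, adjusted 0.754). This score covers posterior genes alone. Of 20 central and anterior Hox genes, 19 had a log2 fold change below 0, with a median of -0.32, while 55.3% of all genes tested were above 0. Hoxb13, the last gene of its Hox cluster, was at 0.317, 187, 0.0908, 9.10 and 247 TPM in PBS-IV and at 313, 21.1, 11.3, 49.0 and 0.806 TPM in Vancomycin-IV. PBS-IV replicates 1 and 3 and Vancomycin-IV replicate 5 lay under 1 TPM of Hoxb13, and both groups also held libraries where it was abundant.

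The 13 protein-coding genes of the mitochondrial genome took 12.3%, 9.93%, 10.6%, 25.7% and 11.3% of TPM in PBS-IV and 9.19%, 6.14%, 10.6%, 10.6% and 8.18% in Vancomycin-IV. PBS-IV replicate 4 stood apart from the other 4 PBS-IV libraries. Because TPM is a share, a larger mitochondrial part lowers the TPM of all other genes in that library. The means were 13.97% ± 6.60 (SD, n = 5) in PBS-IV and 8.95% ± 1.87 (SD, n = 5) in Vancomycin-IV, a difference of -5.02 percentage points (exact permutation test, two-sided, p = 0.0317, adjusted 0.0951). Without PBS-IV replicate 4 it was -2.09 percentage points, with an exact permutation p of 0.0794. The plot of library content shows these measures side by side.

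**Figure D1:**
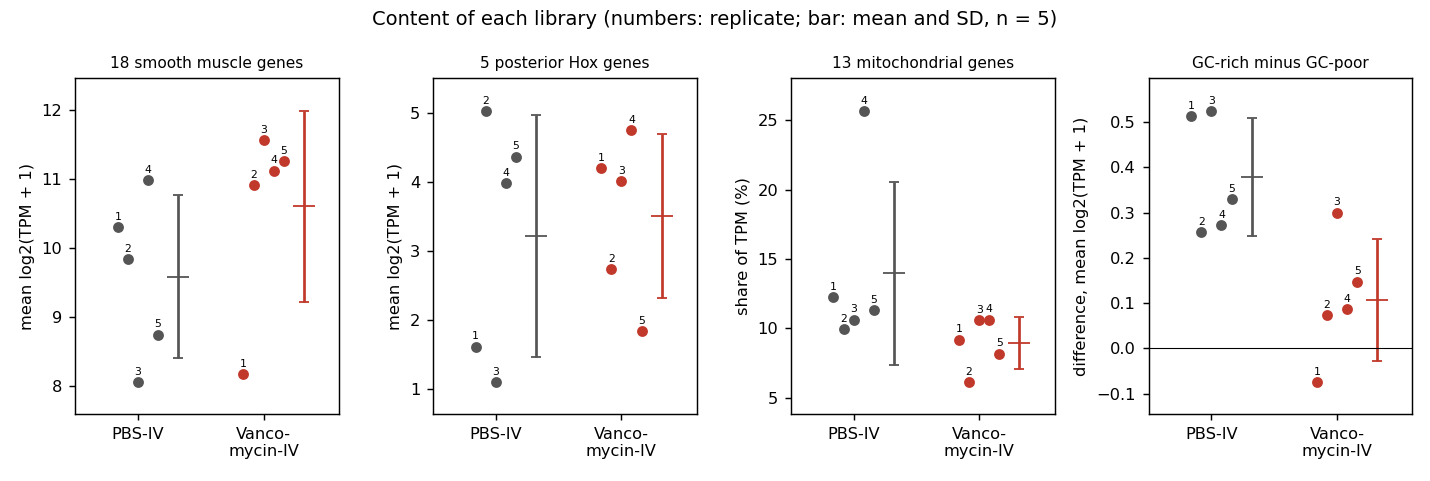
Content of each of the 10 libraries: mean log2(TPM + 1) of 18 smooth muscle genes and of 5 posterior Hox genes, the share of TPM (%) from 13 mitochondrial genes, and the difference in mean log2(TPM + 1) between GC-rich and GC-poor coding genes (defined in the text on transcript composition). Points are libraries numbered by replicate, and bars give the mean and SD (n = 5). Vancomycin-IV replicate 1 has a smooth muscle score of 8.17 against 10.9 to 11.6 in the rest of its group, and PBS-IV replicate 4 has a mitochondrial share of 25.7% against 9.93% to 12.3%.

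Intravenous vancomycin was associated with a small set of called genes, most of them higher. Of 17083 genes tested, 44 passed an adjusted p under 0.05 (limma, Benjamini-Hochberg), which is 0.258% of them. They comprised 39 higher genes (0.228%) and 5 lower genes (0.0293%). At an unadjusted p under 0.05 there were 2329 genes (13.6%), 1760 higher (10.3%) and 569 lower (3.33%). The rises were modest: their median log2 fold change was 0.72, with a range of 0.40 to 1.57, against 0.05 over all genes tested. Over the 39 genes the median of the mean log2(TPM + 1) was 5.85 in Vancomycin-IV and 5.16 in PBS-IV. The other IV groups lay between, at 5.38 in Neomycin-IV, 5.63 in Ampicillin-IV, 5.32 in Metronidazole-IV and 5.68 in Mix-IV. Of the 39, 2, 1, 5 and 0 were below PBS-IV in those groups. The choice of these genes favours low PBS-IV and high Vancomycin-IV values. Of the 44, 30 did not overlap between the groups (27 higher and 3 lower), and over all genes tested 457 did not overlap, which is 2.68% (2.31% higher and 0.369% lower). Of the 44, 4 are predicted genes or pseudogenes. Fold changes are on the log2(TPM + 1) scale, which understates how far low genes moved.

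The call count depended on single libraries. It was 381 without Vancomycin-IV replicate 1, 437 without PBS-IV replicate 4, and 1925 (1519 higher and 406 lower) without both, an alternative added once the values were known. All 44 genes were among the 1925. With both left out the smooth muscle scores no longer overlapped, at 10.9 to 11.6 in Vancomycin-IV and 8.06 to 10.3 in PBS-IV. The 1925 calls therefore cannot be told apart from a difference in muscle content. In the other direction, leaving out Vancomycin-IV replicate 4 gave 0 called genes, PBS-IV replicate 3 gave 1, PBS-IV replicate 5 and Vancomycin-IV replicate 5 gave 4 each, PBS-IV replicate 2 gave 6, and Vancomycin-IV replicates 3 and 2 gave 8 and 10. With limma on the 10 libraries alone 0 genes were called (1470 at an unadjusted p under 0.05); the 44 calls came with the spread estimated over all 18 groups. The split between higher and lower also moved with scaling: 39 and 5 as reported, 2 and 3 after quantile normalization, and 0 called when the mitochondrial genes were left out and TPM rescaled (limma, 2106 genes at an unadjusted p under 0.05). The plot of call counts by setting gives all of them.

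**Figure D2:**
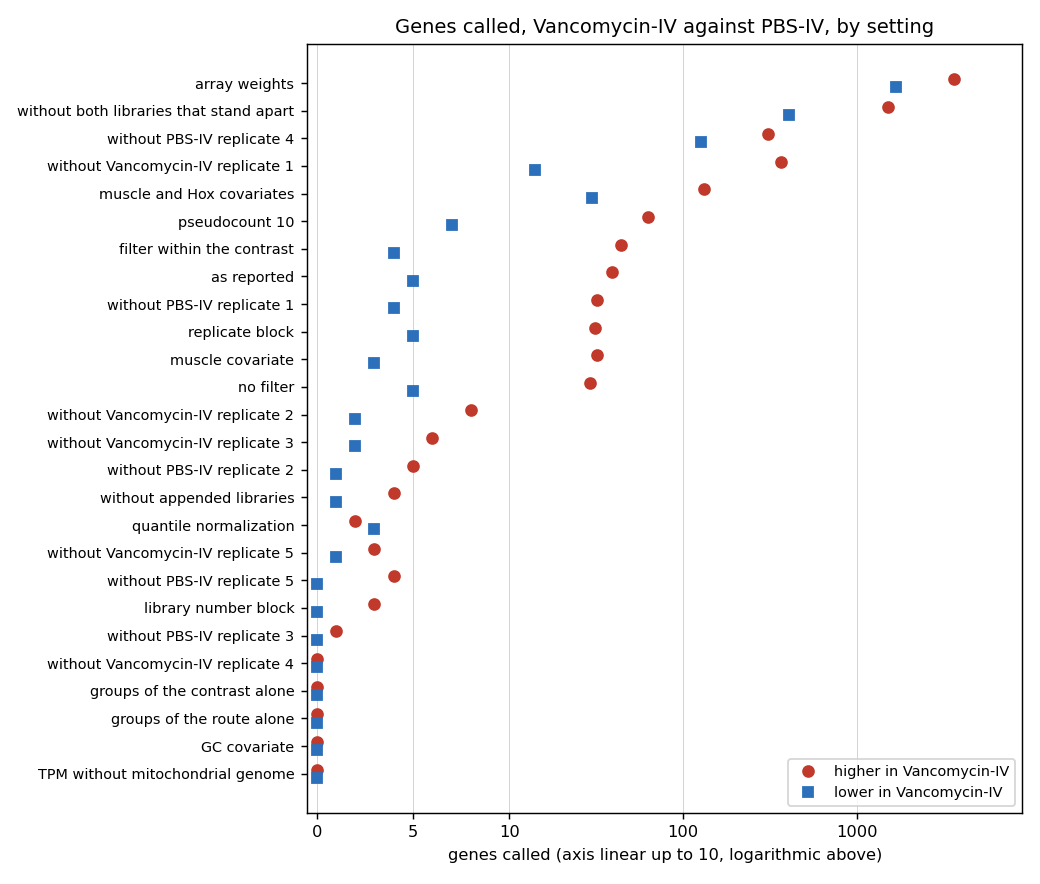
Number of genes called higher (circles) and lower (squares) in Vancomycin-IV than in PBS-IV under each setting, on an axis that is linear up to 10 and logarithmic above. The count runs from 0 in 5 settings to 5310 with array weights, against 44 as reported.

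The genes with the largest called rises belong to several unrelated processes. Among nuclear proteins, Atxn1l, a partner of the transcriptional repressor Capicua, stood at 34.6, 7.87, 9.07, 22.2 and 26.8 TPM in PBS-IV and at 36.8, 66.3, 34.5, 43.5 and 74.6 TPM in Vancomycin-IV. The lowest Vancomycin-IV library lay just under the highest PBS-IV library, and the log2 fold change was 1.44 ± 0.35 (SE). C1d, a cofactor of the nuclear RNA exosome, which trims and degrades RNA, stood at 49.7, 31.1, 24.4, 52.8 and 24.9 TPM in PBS-IV and at 65.1, 98.1, 77.1, 83.0 and 74.8 TPM in Vancomycin-IV. Its groups did not overlap, with a log2 fold change of 1.16 ± 0.26 (SE). Dek, a chromatin-binding protein, stood at 82.9, 73.1, 67.5, 88.1 and 63.8 TPM in PBS-IV and at 111, 128, 154, 168 and 155 TPM in Vancomycin-IV. Every Vancomycin-IV library was above every PBS-IV library for Dek, whose log2 fold change was 0.92 ± 0.18 (SE) with an adjusted p of 0.0139 (limma). Nkapd1 stood at 11.9, 15.1, 11.7, 9.98 and 19.4 TPM in PBS-IV and at 17.6, 22.2, 23.4, 43.1 and 32.5 TPM in Vancomycin-IV. Only Vancomycin-IV replicate 1 lay within the PBS-IV range, and the log2 fold change was 0.94 ± 0.22 (SE).

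Ufd1, Wwp1 and Mmgt1, single genes that stand for no list tested here, were also among the called rises. Ufd1, an adaptor that brings ubiquitylated proteins to the p97 segregase, stood at 27.7, 23.9, 32.7, 30.3 and 28.1 TPM in PBS-IV and at 60.6, 53.7, 67.4, 54.3 and 39.7 TPM in Vancomycin-IV. The groups did not overlap, and the log2 fold change was 0.91 ± 0.20 (SE). Wwp1, a ubiquitin ligase, stood at 44.1, 43.1, 29.1, 54.7 and 36.2 TPM in PBS-IV and at 51.9, 72.9, 73.7, 87.3 and 81.4 TPM in Vancomycin-IV, with overlap at Vancomycin-IV replicate 1 alone and a log2 fold change of 0.82 ± 0.19 (SE). Mmgt1, a subunit of the complex that inserts membrane proteins, stood at 19.7, 21.3, 15.1, 25.7 and 14.8 TPM in PBS-IV and at 29.1, 29.2, 33.8, 37.0 and 38.0 TPM in Vancomycin-IV. Its groups did not overlap, with a log2 fold change of 0.78 ± 0.17 (SE).

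Rps6ka3 encodes RSK2, a kinase that acts downstream of ERK. It stood at 70.0, 77.5, 46.8, 79.7 and 85.6 TPM in PBS-IV and at 107, 161, 150.3, 138 and 189.8 TPM in Vancomycin-IV, so that the groups did not overlap, and the log2 fold change was 1.05 ± 0.26 (SE). Glrx3, a glutaredoxin that takes part in iron-sulfur cluster handling, stood at 53.5, 57.6, 38.7, 67.4 and 50.6 TPM in PBS-IV and at 102, 109, 76.9, 88.6 and 85.1 TPM in Vancomycin-IV. All 5 Vancomycin-IV libraries were again above all 5 PBS-IV libraries, and the log2 fold change was 0.79 ± 0.18 (SE). Adjusted p for these genes ran from 0.0139 for Dek to 0.0475 for Rps6ka3 (limma).

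Targets of p53, the transcription factor that answers DNA damage and other stress, were examined as a list of 15 genes. Of them 2 were called higher, 0 lower, and 13 were not called, with a list median log2 fold change of 0.16. Over all genes tested 0.228% were called higher and the median was 0.05. Ccng1, which encodes cyclin G1, stood at 68.3, 48.9, 39.4, 89.0 and 49.8 TPM in PBS-IV and at 89.9, 111, 132, 126 and 122 TPM in Vancomycin-IV. The groups did not overlap, and the log2 fold change was 1.01 ± 0.21 (SE), about 2.01-fold, with an adjusted p of 0.0292 (limma). Eda2r, a receptor of the tumour necrosis factor family, was low throughout, at 1.48, 1.21, 0.378, 1.34 and 0.797 TPM in PBS-IV and 1.40, 2.22, 3.27, 4.35 and 4.05 TPM in Vancomycin-IV, with a log2 fold change of 0.96 ± 0.23 (SE) and an adjusted p of 0.044. Of the members often used as readouts of p53, Cdkn1a, the p21 cell cycle inhibitor, had a log2 fold change of -0.12 ± 0.37 (SE), and Mdm2, the ligase that degrades p53, had -0.07 ± 0.15 (SE). Neither was called, and the sign of each was reversed under some of the alternatives tried. The list median was -0.00 without Vancomycin-IV replicate 1, -0.07 without PBS-IV replicate 4 and -0.13 without both.

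**Figure D3:**
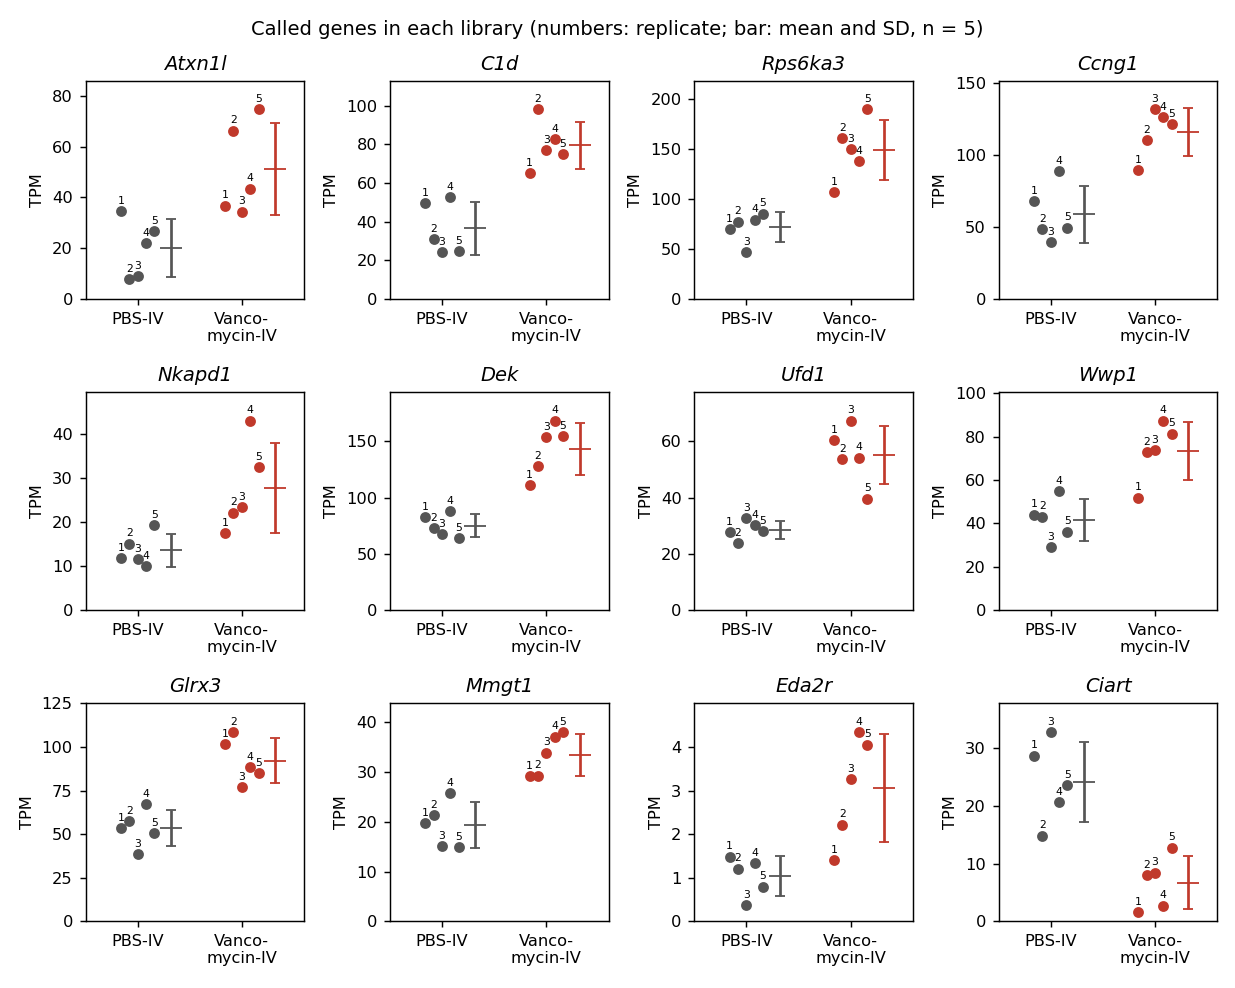
TPM in each library of the 10 genes with the largest called rise, of Eda2r and of Ciart, on linear axes from 0. Points are libraries numbered by replicate, and bars give the mean and SD (n = 5). Ciart lies between 1.62 and 12.8 TPM in Vancomycin-IV and between 14.8 and 32.8 TPM in PBS-IV, whereas the other 11 genes are higher in Vancomycin-IV.

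The other 28 higher genes lay outside the rule for named genes and were listed after their values were seen. They included Dusp19, a dual-specificity phosphatase, and Dnajc28, a J-domain protein, which had the smallest adjusted p of the comparison at 0.0112 each (limma). Dusp19 stood at 5.64, 6.89, 5.06, 6.99 and 6.25 TPM in PBS-IV and at 9.62, 15.8, 8.95, 12.7 and 11.3 TPM in Vancomycin-IV. Dnajc28 stood at 3.13, 4.98, 4.17, 2.77 and 2.90 TPM in PBS-IV and at 5.49, 5.76, 8.64, 8.68 and 7.07 TPM in Vancomycin-IV. Neither gene overlapped between the groups. Genes of RNA handling were Ddx3x, an RNA helicase, with a log2 fold change of 0.63, Snrpb, a core splicing protein, with 0.77, and Smndc1, a splicing factor, with 0.40, beside Mfap1a and Zfp106. Genes of chromatin and transcription were Smc3, a cohesin subunit, with 0.58, Rest, a repressor of neuronal genes, with 0.60, and Wac with 0.76. Genes of glycan synthesis were Galnt1, which starts mucin-type O-glycans, with 0.62, and Alg10b, which completes the N-glycan precursor, with 0.72. Genes of signalling and transport were Acvr2a, an activin receptor, with 0.72, Arhgap5 with 0.64, and Tnpo1, a nuclear import receptor, with 0.58. The rest were Mfap3, Pals1, Mospd1, Lnpep, Ccny, Ralgapb, Mfsd1, Dennd6a, Zmpste24, Bpnt2, Slc25a16, Gm8116 and Gm6055.

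Whether the libraries kept the strand of the RNA is not stated, so reads of overlapping genes cannot be told apart. In the GENCODE M21 annotation, 10 of the 44 called genes share exon bases with another gene. The share over all genes tested was not computed. The largest overlap is that of Zfp106, which shares 2719 bases with Gm26899 on the opposite strand. Dek shares 498 bases with Kdm1b, Acvr2a shares 446 bases with Orc4, and Ufd1 shares 52 bases with Cdc45, each on the opposite strand. Wwp1 shares 46 bases with Gm12353 on the opposite strand, and Mmgt1 shares 63 with Mir5116 on the same strand. Nkapd1 shares 144 bases with Pih1d2 and 81 with Timm8b. The values of these genes are uncertain to that extent.

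The called rises had transcripts that were long and poor in G and C. For each coding gene the transcript with the longest coding part was taken from GENCODE M21, which gave a value for 37 of the 39 higher genes (94.9%) and for 16075 of 17083 genes tested (94.1%). Median GC content was 41.8% in the higher genes and 50.3% over all genes tested, and median length was 4752 and 2950 bases. When the genes tested were split into 5 equal bins by GC content, the bins from the least to the most GC held 26, 9, 1, 0 and 1 of the higher genes. The shift was not limited to called genes: the median log2 fold change of all genes ran from 0.18 in the bin with the least GC to -0.10 in the bin with the most.

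The same gradient could be read in each library. The mean log2(TPM + 1) of the GC-richest bin minus that of the GC-poorest bin was 0.51, 0.26, 0.52, 0.27 and 0.33 in PBS-IV and -0.07, 0.07, 0.30, 0.09 and 0.15 in Vancomycin-IV. Of the Vancomycin-IV libraries 4 lay below every PBS-IV library, and replicate 3 lay within their range. With this per-library difference as a covariate, an alternative added after the data were seen, limma called 0 genes (1534 at an unadjusted p under 0.05). The 39 higher genes then had a median log2 fold change of 0.55, against 0.72 without it, and all 39 were above 0, a direction that their choice favours. The source of the gradient was not tested.

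**Figure D4:**
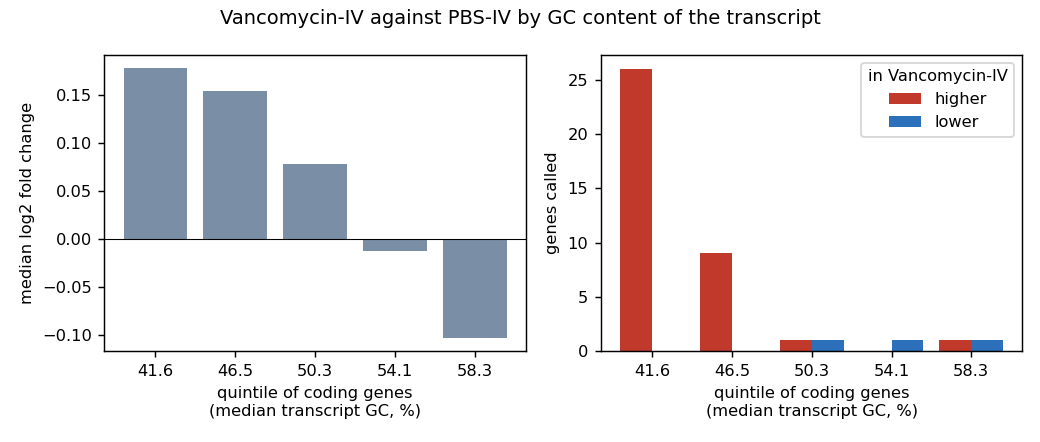
Coding genes tested, split into 5 bins by the GC content of the transcript (x axis, median GC of each bin in %). The left bars give the median log2 fold change of Vancomycin-IV against PBS-IV, from 0.18 in the bin with the least GC to -0.10 in the bin with the most, and the right bars count the genes called higher and lower, with 26 of the higher genes in the bin with the least GC.

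The 1 fall that the naming rule admitted was Ciart, a repressor in the circadian clock. The clock is a loop in which CLOCK and BMAL1 (encoded by Arntl) bind E-box sequences and switch on the Per, Cry, Nr1d and Ciart repressors and the output factors Dbp, Tef and Hlf, which bind D-box sequences. The repressors then shut the activators off, so activators and repressors peak at opposite times of day. The labels give no clock time for the tissue collection. The promoters of Ciart and Per3 are shown because the libraries of these 2 repressors did not overlap between the groups and both windows hold matches to those elements. They are the 250 bases before the start site, from RefSeq on GRCm38.p6, at chr3:95882229-95882478 for Ciart and chr4:151044666-151044915 for Per3, both on the minus strand, with matches in capitals. The E-box CACGTG reads the same on both strands and the D-box was searched as TTATGTAA and, for the other strand, TTACATAA.
Ciart: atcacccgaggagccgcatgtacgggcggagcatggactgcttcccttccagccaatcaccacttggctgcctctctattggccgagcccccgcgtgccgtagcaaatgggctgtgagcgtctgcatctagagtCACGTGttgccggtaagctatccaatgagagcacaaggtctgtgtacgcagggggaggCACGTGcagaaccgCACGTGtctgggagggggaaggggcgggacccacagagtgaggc
Per3: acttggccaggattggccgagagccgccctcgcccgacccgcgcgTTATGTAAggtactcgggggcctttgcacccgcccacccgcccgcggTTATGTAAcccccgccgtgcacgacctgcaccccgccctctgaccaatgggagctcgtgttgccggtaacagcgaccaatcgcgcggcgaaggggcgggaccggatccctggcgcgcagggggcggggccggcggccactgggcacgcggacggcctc

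The Ciart window holds 3 E-box matches, with first bases 116, 58 and 44 bases before the start site. Of 32851 promoter windows of this length, 6.02% hold at least 1. The Per3 window holds 2 D-box matches, starting 205 and 158 bases before the start site, and 0.819% of windows hold at least 1. Neither window holds both motifs. Of the 24 circadian genes, 20 had a window in the table, of which 6 hold an E-box match and 2 a D-box match. The windows of Dbp, Usp2 and Clock hold neither of these letter strings. The 2 windows shown were picked partly for holding matches, so their matches are not a test of clock control.

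Ciart stood at 28.7, 14.8, 32.8, 20.6 and 23.6 TPM in PBS-IV and at 1.62, 8.07, 8.45, 2.74 and 12.8 TPM in Vancomycin-IV. Every Vancomycin-IV library was below every PBS-IV library, and the log2 fold change was -1.90 ± 0.42 (SE) with an adjusted p of 0.035 (limma). The call ended when PBS-IV replicate 3, PBS-IV replicate 5 or Vancomycin-IV replicate 4 was left out, with adjusted p up to 0.189. Over 25 alternatives, these among them, the call was lost in 9, with adjusted p up to 0.566 (limma). The log2 fold change stayed below 0 in all of them, from -2.17 to -1.05. Ciart was the 1 called member of 11 clock repressors, in which 3 log2 fold changes were above 0 and 8 below. Over all genes tested 0.0293% were called lower and 55.3% were above 0. Per3 stood at 74.5, 98.6, 90.4, 75.0 and 74.2 TPM in PBS-IV and at 16.6, 43.1, 50.2, 35.1 and 40.5 TPM in Vancomycin-IV, also without overlap, yet was not called, with a log2 fold change of -1.21 ± 0.31 (SE) and an adjusted p of 0.0567. Nr1d1 and Nr1d2, which encode the REV-ERB receptors that repress Arntl, had log2 fold changes of -0.36 ± 0.21 (SE) and -0.32 ± 0.23 (SE). Per1 and Per2 had -0.32 ± 0.31 (SE) and -0.68 ± 0.69 (SE), and none of these 4 was called. Cry1, a repressor whose peak follows that of the Per genes, had the opposite sign at 1.54 ± 0.71 (SE) and an adjusted p of 0.313.

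None of the 6 activators or 7 output genes was called (limma; at an unadjusted p under 0.05, 2 activators were higher, and among the outputs 1 was higher and 2 were lower). At that threshold 10.3% of all genes tested were higher and 3.33% lower. Dbp, an output transcription factor, stood at 240.1, 304, 253, 265 and 179 TPM in PBS-IV and at 17.6, 138, 138, 59.5 and 154 TPM in Vancomycin-IV. The groups did not overlap, with Vancomycin-IV replicate 1 the lowest, and the log2 fold change was -1.61 ± 0.49 (SE) with an adjusted p of 0.0982. Usp2, a ubiquitin protease under clock control, had a log2 fold change of -1.32 ± 0.38 (SE) and an adjusted p of 0.0856. Among the activators, Clock stood at 58.7, 86.6, 50.2, 61.0 and 72.8 TPM in PBS-IV and at 92.0, 107, 87.7, 118 and 90.9 TPM in Vancomycin-IV, without overlap, with a log2 fold change of 0.60 ± 0.17 (SE) and an adjusted p of 0.0755. Arntl stood at 3.66, 10.6, 4.27, 2.85 and 15.98 TPM in PBS-IV and at 34.9, 23.3, 11.6, 14.9 and 13.4 TPM in Vancomycin-IV, with a log2 fold change of 1.42 ± 0.46 (SE) and an adjusted p of 0.132. Their medians were 0.59 for the activators, -0.32 for the repressors and -0.28 for the outputs. With the smooth muscle and Hox scores as covariates, 162 genes were called (132 higher, 0.773%, and 30 lower, 0.176%), among them 2 activators that were higher, 2 repressors that were lower and 1 output that was lower. Neomycin-IV lay on the same side of PBS-IV as Vancomycin-IV for these lists. Mean log2(TPM + 1) of the activators was 4.65 in Vancomycin-IV, 4.65 in Neomycin-IV and 4.14 in PBS-IV. For the repressors it was 5.04, 4.84 and 5.31, and for the outputs 5.17, 5.13 and 5.64. No circadian gene was called for Vancomycin-IV against Neomycin-IV (limma). Neomycin-IV against PBS-IV was not tested here.

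Ciart had a negative log2 fold change against PBS of the same route by all 3 routes. Its log2 fold change was -2.66 ± 0.38 (SE) by mouth and -2.70 ± 0.47 (SE) into the peritoneum, from libraries that share none with the IV comparison. The difference of the effects was 0.76 between IV and PO (adjusted p = 0.9999) and 0.80 between IV and IP (adjusted p = 0.615), from the interaction contrasts in limma. Per3 had -1.64 ± 0.28 (SE) by mouth and -1.48 ± 0.35 (SE) into the peritoneum, and Dbp had -2.43 ± 0.44 (SE) and -2.42 ± 0.54 (SE). Nfil3, a repressor that competes with Dbp for D-boxes, had 0.74 ± 0.32 (SE) into a vein, 1.62 ± 0.29 (SE) by mouth and 2.73 ± 0.35 (SE) into the peritoneum. The IP groups also differed in smooth muscle score, at 10.7 to 11.4 in Vancomycin-IP and 8.42 to 9.25 in PBS-IP. Its part in these effects was not tested. The plot of circadian genes by route gives all 24.

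**Figure D5:**
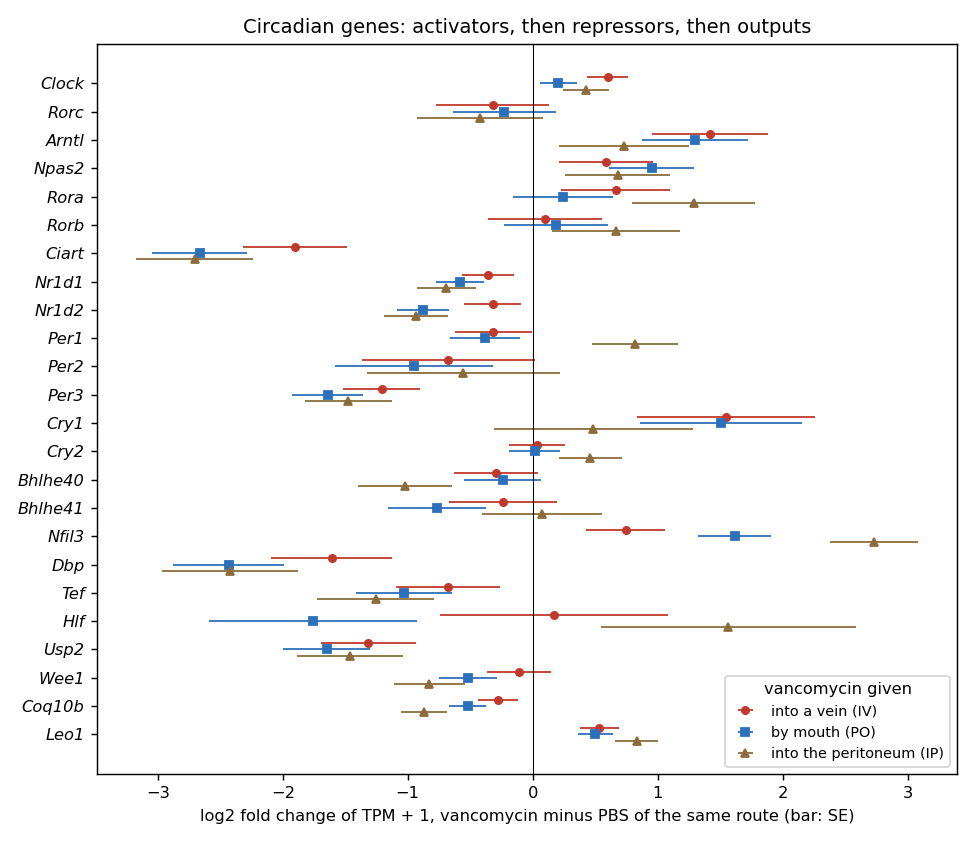
Log2 fold change on the TPM + 1 scale (x axis) of 24 circadian genes, vancomycin minus PBS of the same route, into a vein (circles), by mouth (squares) and into the peritoneum (triangles), with bars for the SE. Ciart is below 0 in all 3 routes, at -1.90 into a vein, and Arntl is above 0 in all 3, at 1.42 into a vein.

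The other called falls were outside the naming rule and were named after their values were seen. Ufsp1, a protease of the ubiquitin-like protein UFM1, stood at 16.5, 17.5, 16.1, 18.7 and 16.7 TPM in PBS-IV and at 5.72, 9.39, 12.5, 9.95 and 7.29 TPM in Vancomycin-IV. Its groups did not overlap, and the log2 fold change was -0.90 ± 0.21 (SE). Ctrl, a chymotrypsin-like protease, was low throughout, at 0.998, 1.26, 3.02, 0.461 and 2.72 TPM in PBS-IV and 0.319, 0.226, 0.381, 0.518 and 0.275 TPM in Vancomycin-IV, with overlap between the groups and a log2 fold change of -0.90 ± 0.21 (SE). The predicted gene Gm46223 stood at 267, 260.0, 245, 301 and 178 TPM in PBS-IV and at 131, 74.6, 57.1, 98.4 and 62.2 TPM in Vancomycin-IV, with a log2 fold change of -1.60 ± 0.38 (SE). Rpl30-ps9, a pseudogene whose reads cannot be told with certainty from those of Rpl30, was at 79.4, 149.6, 86.8, 46.3 and 109 TPM in PBS-IV and listed at 48.4, 114, 0, 0 and 4.21 TPM in Vancomycin-IV.

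Of the 50 gene lists examined, 48 had no called member (limma). For cell types, all 18 smooth muscle genes had a log2 fold change above 0, with a median of 1.00, a smallest adjusted p of 0.290, and 2 of them (11.1%) passed an unadjusted p of 0.05, a share near the 10.3% of all genes that were higher at it. Adding the muscle and Hox scores, which hold these same genes, as covariates gave a median of -0.06. All 16 fibroblast genes were also above 0, with a median of 0.77, and Col3a1, a fibrillar collagen, had 1.10 ± 0.60 (SE). Goblet cell genes had a median of -0.71, with 2 of 16 above 0, B cell genes -0.50, with 1 of 16 above 0, and T cell genes -0.40, with 0 of 16 above 0. No gene of these 5 lists was called. Over all genes tested 55.3% were above 0. The part of these cell types in the 44 calls was not tested beyond the covariates above. The summed smooth muscle level ran from 9086 to 99221 TPM in Vancomycin-IV and from 9453 to 69162 TPM in PBS-IV, with no muscle gene at 0 in any library.

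The lists for interferon response, antimicrobial proteins, bacterial sensing, heat shock, the mitochondrial genome and cholesterol synthesis were likewise without calls. The 32 type I interferon response genes had a median log2 fold change of -0.28, with 0 higher and 2 lower at an unadjusted p under 0.05, and a summed level of 590.4 to 1235 TPM in Vancomycin-IV against 477.7 to 2363 TPM in PBS-IV. Over all genes 10.3% were higher and 3.33% lower at that threshold. The 24 interferon gamma response genes had a median of -0.17, the 18 antimicrobial proteins -0.08 and the 18 genes of bacterial sensing -0.17. Heat shock genes were all above 0, 14 of 14, with a median of 0.28 and a smallest adjusted p of 0.0993. The 13 mitochondrial genes were all below 0, with a median of -0.48, the list that the share of TPM above already describes. Cholesterol synthesis genes had a median of -0.24, with 3 of 25 above 0, and Hmgcs1, an early enzyme of that pathway, had -0.21 ± 0.27 (SE).

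The vancomycin effect into a vein was compared directly with that by the other routes. No gene was called for IV minus PO (limma; 509 genes at an unadjusted p under 0.05, 2.98%) or for IV minus IP (1258 genes, 7.36%). The smallest p-values for IV minus PO belonged to Dusp19, with a difference of log2 fold changes of 0.96 ± 0.20 (SE), and Dnajc28, with 1.00 ± 0.21 (SE), both at an adjusted p of 0.108. Dusp19 had an effect of 0.80 into a vein, -0.15 by mouth and 0.41 into the peritoneum. For IV minus IP the smallest belonged to Nfil3 at -1.99 ± 0.48 (SE), Cul3, a ubiquitin ligase scaffold, at 0.82 ± 0.20 (SE), and Fcf1, a ribosome assembly factor, at 0.99 ± 0.24 (SE), all at an adjusted p of 0.530. The 39 genes higher by the IV route had a median log2 fold change of 0.19 by mouth, where 32 of them were above 0 (82.1%, against 49.2% of all genes), and of 0.42 into the peritoneum, where 36 were above 0 (92.3%, against 57% of all genes). The smooth muscle scores of the IP groups did not overlap, at 10.7 to 11.4 in Vancomycin-IP and 8.42 to 9.25 in PBS-IP. The part of muscle content in these shares was not tested.

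Intravenous vancomycin was also set against intravenous neomycin, an aminoglycoside, given in the same dose and schedule to 5 libraries. Neomycin was chosen because earlier results of these data had shown interferon genes to rise with it. The interferon counts below were therefore foreseen and are not an independent test. Of 17083 genes, 209 were higher in Vancomycin-IV (1.22%) and 171 were lower (1%). Of the 32 type I interferon response genes 30 were lower in Vancomycin-IV, 0 were higher and 2 were not called, with a median log2 fold change of -2.37 against 0.08 over all genes. Of the 24 interferon gamma response genes 14 were lower and 10 were not called, with a median of -1.24. Xaf1, an interferon-induced apoptosis factor, was at 9.33 to 17.1 TPM in Vancomycin-IV (median 10.4) and at 51.2 to 58.5 TPM in Neomycin-IV (median 56.9), while PBS-IV ran from 9.55 to 25.7 TPM. Ifi44 was at 1.42 to 7.57 TPM in Vancomycin-IV, 25.3 to 72.2 TPM in Neomycin-IV and 1.000 to 4.99 TPM in PBS-IV. For both genes the Vancomycin-IV and Neomycin-IV libraries did not overlap, and Vancomycin-IV overlapped PBS-IV.

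The other 4 genes with the smallest adjusted p against neomycin were also interferon-induced. Their log2 fold changes were -1.53 ± 0.18 (SE) for Dtx3l, a ubiquitin ligase, -1.27 ± 0.16 (SE) for Ube2l6, which conjugates ISG15, -4.16 ± 0.54 (SE) for Apol9b, and -2.57 ± 0.34 (SE) for Usp18, which removes ISG15. Tissue markers also differed in mean level between these groups, while the scores of the 2 groups overlapped. At an unadjusted p under 0.05, 13 of 18 smooth muscle and 12 of 16 fibroblast genes were higher in Vancomycin-IV, and 10 of 18 surface colonocyte genes were lower, where 16.6% of all genes were higher and 9.17% lower. None of these was called, and the median log2 fold changes were 1.46, 1.21 and -1.36. With the muscle and Hox scores as covariates 173 genes were called. The smooth muscle genes had mean scores of 7.74 to 10.4 in Neomycin-IV libraries. Of the 44 genes called against PBS-IV, 13 (29.5% of them, and 3.42% of the 380 called against neomycin) were called here with the same sign. The 2 comparisons share the Vancomycin-IV libraries. The split was 158 higher and 197 lower after quantile normalization. The count of 380 moved by over 1.5 times with any of the 10 libraries left out: it was 3496, 249, 151, 143 and 152 without Vancomycin-IV replicates 1 to 5 and 191, 156, 153, 207 and 921 without Neomycin-IV replicates 1 to 5, and it was 134 with the GC covariate.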

How the data were processed

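Whole colon poly(A) RNA was sequenced as single reads of 75 cycles from 1000 ng total RNA per library. The deposited table held 20457 genes by 97 libraries. The tools named were Salmon, whose version is not given in the sources used here, cutadapt 3.5 and Trim Galore 0.6.2, with the build GRCm39, per the submitters' processing notes. The values were taken as TPM made by the authors, because each deposited column sums to 1000000 and no label names the unit. Depth is unknown in TPM, so no counting interval could be given.

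TPM were turned into log2(TPM + 1) with a pseudocount of 1. The 17083 genes with a TPM of at least 1 in at least 4 libraries were fitted over all 18 groups with limma 3.58.1 (trend, robust) in R 4.3.3, with Benjamini-Hochberg adjustment per contrast and a threshold of 0.05. The 3 content measures were tested by exact permutation over 252 splits. The fit was tested on simulated data. Transcript length, GC content and exon overlap came from GENCODE M21 on GRCm38, matched by gene ID for 20387 genes, and promoters from RefSeq on GRCm38.p6, matched by symbol for 20 of 24 circadian genes. Figures were drawn in Python 3.11.15.

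Named genes were up to 10 called rises and 10 called falls with the largest change and a mean, in the higher group, at or above the median tested gene (predicted genes, pseudogenes and receptor segments left out), up to 4 called members and the 2 most abundant of each of 50 gene lists, all circadian, smooth muscle and posterior Hox genes, and up to 6 called genes, or 3 uncalled, of each other contrast. The comparison and the lists were chosen with earlier results of these data known. Alternatives covered pseudocount, filters, scaling, library weights, blocks, covariates, the groups in the fit and leaving out libraries. They included leaving out 12 libraries whose columns were appended at the end of the table, 4 of them among the 10 here.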

Additional observations from a re-analysis of the deposited data

Results flagged for a closer look

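Each check took the values of a score or gene within a group of libraries. Of 172 checks, 18 found a library far from the others of its group by Dixon's criterion, where chance gives about 1 in 20. The checks reuse the same libraries and are not independent, so the 18 cannot be set against that rate. Vancomycin-IV replicate 1 accounted for 11 of the 18. Its smooth muscle score was 8.166 against 10.9 to 11.55 in the other 4 libraries, with Tagln at 1348 TPM against 9562 to 12700 and Myh11 at 859.4 against 8860 to 11940. Its goblet cell genes stood high, with Zg16 at 7128 TPM against 140 to 733.4 and Fcgbp, a mucus protein, at 4446 against 258.2 to 1000. Hoxb13 stood at 313.1 TPM against 0.8056 to 48.99. Tef was low at 28.65 TPM against 132.9 to 168, and Mdm2 was low at 30.33 against 48.1 to 51.95. The interferon-induced genes Xaf1 and Ifi44 were high, at 17.14 TPM against 9.334 to 11.06 and at 7.566 against 1.419 to 1.84. The predicted gene Gm8116 was also high, at 5.724 TPM against 2.237 to 3.017.

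PBS-IV replicate 4 stood apart in the mitochondrial share of TPM, at 25.68% against 9.926% to 12.27%, and in mt-Co1, a subunit of cytochrome c oxidase, at 93840 TPM against 28280 to 46160. Among called genes, Mfap3 was at 15.47 TPM in PBS-IV replicate 3 against 21.71 to 24.22, and Gm8116 was at 2.253 TPM in PBS-IV replicate 1 against 0 to 0.6216. Ccny was at 92.4 TPM in Vancomycin-IV replicate 5 against 81.17 to 84.19. In Vancomycin-IV replicate 3, Arhgap5 was at 89.87 TPM against 109.9 to 117.6 and Bpnt2 at 96.74 against 118.5 to 124.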

How the results depend on the processing

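The 44 calls against PBS-IV became 70 with a pseudocount of 10, 5 after quantile normalization, 0 without the mitochondrial genome, 5310 with array weights, 3 with the library number as a block, 0 with the 2 groups alone, 0 with the IV groups alone (limma, 2120 at an unadjusted p under 0.05), 162 with muscle and Hox covariates, 5 without appended libraries, 1925 without both libraries that stand apart and 0 with the GC covariate. The last 2 were chosen after seeing the data. The muscle covariate alone gave 35 calls, of which 23 were among the 44. Leaving out 1 library gave 0 to 437. The count against Neomycin-IV, 380, became 7111 with array weights, 177 with the library number block, 150 with the 2 groups alone, 136 with the IV groups alone, 173 with both covariates, 129 with the muscle covariate, 4262 without appended libraries, 3932 without both libraries and 134 with the GC covariate, and ran from 143 to 3496 with 1 library left out. IV minus PO gave 7 calls with array weights, 1 with both covariates and 1 with the muscle covariate, and IV minus IP gave 189 with array weights. The cause of these changes was not tested.

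With 1 library left out, the score differences ran from 0.636 to 1.62 for smooth muscle, from -0.244 to 0.739 for posterior Hox, and from -6.03 to -2.09 percentage points for the mitochondrial share. The following uncalled genes reversed in log2 fold change. Per1 was 0.048 without both libraries and 0.071 with the GC covariate. Cdkn1a was 0.26 with either set of muscle covariates, 0.12 with the GC covariate, and -0.47 to 0.080 with 1 library left out. Mdm2 was 0.046 with array weights, 0.18 without appended libraries, 0.028 without both libraries, 0.035 with the GC covariate, and -0.12 to 0.068 with 1 library left out. Hoxb13 was -0.82, -0.39, -0.36 and -1.90 under those first 4 settings, and -0.24 to 1.72 with 1 library left out. With both covariates and with muscle alone, Tagln was -0.082 and -0.074, Myh11 -0.15 and -0.16, and Zg16 0.39 and 0.46. Fcgbp was 0.054 with muscle alone, and mt-Co1 was 0 after quantile normalization.

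Same-numbered libraries gave correlations of both signs (r from -0.668 to 0.404 over 5 pairs), as did the 4 pairs that share a library number (r from -0.415 to 0.748). With so few pairs, whether either number pairs the libraries cannot be decided. With the replicate block 36 genes were called, all 36 among the 44, and with the library number block 3.

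The 10 libraries differ in muscle, distal and mitochondrial content within each group, and no depth is known from TPM. Which content belongs to the treatment and which to the piece of tissue cannot be told apart.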

Other observations

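Central and anterior Hox genes, which are not among the posterior Hox genes scored above, had 19 of 20 log2 fold changes below 0, with a median of -0.32 and none called (limma). Over all genes tested 55.3% were above 0. Adipocyte genes were below 0 in 7 of 7 tested members, with a median of -0.58. Xenobiotic metabolism and transport had a median of -0.65 over 15 genes, bile acid transport and sensing -0.61 over 11 genes, and enteroendocrine cell genes -0.75 over 14 genes, with none called. With the muscle and Hox scores as covariates these 3 medians were 0.02, 0.02 and -0.24, while that of central and anterior Hox genes was -0.54.

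Of the 39 genes called higher, 5 lie on the X chromosome (12.8%), namely Rps6ka3, Eda2r, Mmgt1, Ddx3x and Mospd1, against 574 of 17083 genes tested (3.36%). This was noticed after the values were seen and was not tested.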
